A study of Homo sapiens with 6 samples.

Results

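The RAS-RAF-MEK-ERK cascade was followed through 7 of its core genes, chosen by name: NRAS, HRAS, BRAF, MAP2K1, MAP2K2, MAPK3 and NF1. Of these, 5 were measured here among 18417 genes: HRAS, MAP2K1, MAP2K2, MAPK3 and NF1. NRAS and BRAF were not analysed here. Both groups were U-87 MG, an established human glioma cell line grown in DMEM with serum. The knockdown group was labelled P68 Knockdown (3 arrays) and the comparison group P68 Wild Type (3 arrays), where P68 is the RNA helicase encoded by DDX5. Cells received either siP68, a small interfering RNA, or a reagent the labels call NC, and no label ties NC to the wild-type arrays. No dose or time after transfection is given.

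The cascade carries signals from growth factor receptors to the nucleus. RAS proteins are small GTPases that are active when bound to GTP, and active RAS recruits RAF kinases, which phosphorylate MEK1 and MEK2, which in turn phosphorylate the ERK kinases. Neurofibromin, the NF1 product, speeds GTP hydrolysis by RAS and so restrains the cascade, and its loss is a recurrent event in glioma. Much of the control of this cascade is by phosphorylation and GTP loading, which an RNA measurement does not show. The series title joins P68 to DUSP5, a phosphatase that inactivates ERK in the nucleus, and the RNA levels of the genes upstream of that step are compared here.

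The table held 29096 probe sets with log2 signals of 1.22 to 13.81, and the array medians were 4.32 to 4.37. DDX5 was at 71.2% of the wild-type signal in the knockdown (95% confidence interval 58.4% to 86.9%), with all 3 knockdown arrays below all 3 wild-type arrays. Its adjusted p in limma was 0.902, and 4.15% of all genes likewise had every knockdown array below every wild-type array. Of 11 measured markers of mesenchymal glioma lines, CD44 (3.48 to 3.80 over the 6 arrays) and TNC (3.62 to 3.85) were among the dimmest 40% of genes. Both are genes that U-87 cells are known to express, so their dim signals go against the usual profile of the labelled line. The other measured markers of that list lay outside the dimmest 40% of genes. HSP90AA1 (2.44 to 2.68) and PTPN11 (3.08 to 3.49), listed here as genes around the cascade, were also among the dimmest 40% of genes. Whether such dim signals come from the probe sets or from the cells was not tested, nor was the identity of the cells. No detection calls were used, so a dim signal cannot be told from background. The summed signal of 5 microglia and leukocyte markers lay between 6.30 and 6.54 on the knockdown arrays and between 6.20 and 6.25 on the wild-type arrays, on the log2 scale. In that list PTPRC, AIF1 and CD3E were among the dimmest 40% of genes, and the median log2 difference was 0.02. CD68 was higher on all 3 knockdown arrays, as were 5.98% of all genes. The part of these markers in the results below was not tested. The sums of the other 5 marker lists (mesenchymal glioma line, neuron, oligodendrocyte, endothelium and epithelium) overlapped between the groups.

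No measured core cascade gene passed the test for a difference between knockdown and wild type. Over all 18417 genes, 0 passed an adjusted p of 0.05 in limma (0% of genes tested), and 937 (5.09%) had an unadjusted p under 0.05. None of the 5 measured members, each taken at its brightest probe set, was among those 937. The groups overlapped for all 5 members, where 10.1% of all genes tested had groups that did not overlap. The log2 differences of the members, knockdown minus wild type, ran from -0.19 for NF1 to 0.01 for MAP2K2, with 4 of the 5 below 0. Over all genes 46.5% of values were below 0. The median of the members was -0.04, against 0.01 for all genes tested. All 5 members lay outside the dimmest 40% of genes. Nothing in the labels tells separate cultures from repeat preparations of 1 culture, so p-values cover the spread among these arrays only, and that spread may be technical. In bulk RNA from a culture, fewer cells with a transcript and less transcript per cell cannot be told apart.

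**Figure D1:**
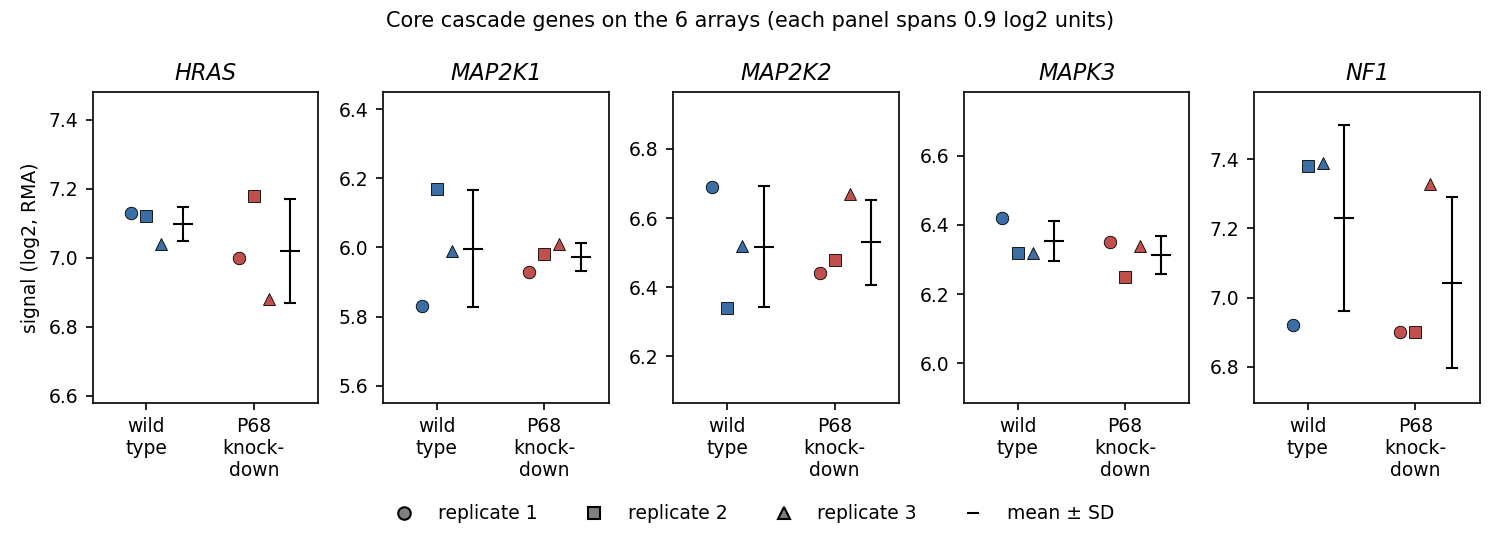
Log2 RMA signal (vertical axes, 0.9 log2 units in each panel) of the 5 measured core cascade genes on 3 wild-type arrays (blue) and 3 P68 knockdown arrays (red), with the marker shape giving the replicate number and bars giving the group mean ± SD (n = 3). The 2 groups overlap in every panel, and NF1 shows the widest spread, with 3 arrays near 6.9 and 3 between 7.33 and 7.39.

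HRAS encodes one of the RAS GTPases at the head of the cascade. Its log2 signal was 7.13, 7.12 and 7.04 on wild-type replicates 1, 2 and 3, and 7, 7.18 and 6.88 on knockdown replicates 1, 2 and 3. Knockdown replicate 2 was the highest of the 6 arrays and knockdown replicate 3 the lowest, so the knockdown arrays enclosed the wild-type ones. The means were 7.02 ± 0.15 and 7.10 ± 0.05 (SD, n = 3 each) in knockdown and wild type. The log2 difference was -0.08 ± 0.11 (SE), with an adjusted p of 0.934 in limma. HRAS in the knockdown stood at 94.8% of its wild-type level (95% confidence interval 80.2% to 112%). Leaving out knockdown replicate 2 gave -0.16 and leaving out knockdown replicate 3 gave -0.01, so its size rested on single arrays.

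NF1 encodes neurofibromin, the GTPase activating protein that switches RAS off. Its brightest probe set gave 6.92, 7.38 and 7.39 on wild-type replicates 1, 2 and 3. On knockdown replicates 1, 2 and 3 it gave 6.90, 6.90 and 7.33. The arrays fell into a low set near 6.9 (knockdown replicates 1 and 2 with wild-type replicate 1) and a high set (knockdown replicate 3 with wild-type replicates 2 and 3), and each set held arrays of both groups. NF1 was the most variable member: 90.9% of all genes had a smaller residual SD. The knockdown mean was 7.04 ± 0.25 and the wild-type mean 7.23 ± 0.27 (SD, n = 3 each). The log2 difference of NF1 was -0.19 ± 0.16 (SE), and its adjusted p in limma was 0.912. This was 87.9% of the wild-type level (95% confidence interval 68.6% to 112%). An absolute difference larger than that of NF1 was found for 17.6% of all genes. With wild-type replicate 1 left out the NF1 difference was -0.34, with knockdown replicate 3 left out -0.33, and with wild-type replicate 3 left out -0.11.

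NF1 had 3 probe sets, whereas HRAS, MAP2K1, MAP2K2 and MAPK3 had 1 each. The other two NF1 probe sets (8022424 and 8067862) carried the same value as each other on every array, so they count as 1 measurement. They read 3.00, 2.99 and 2.93 on wild-type replicates 1, 2 and 3, and 2.38, 2.74 and 2.68 on knockdown replicates 1, 2 and 3. Both were among the dimmest 40% of probe sets with 1 gene symbol, and a level above background was not shown for them. Every knockdown reading was below every wild-type reading, as it was for 4.15% of all genes tested, and the readings did not follow the low and high sets seen with the brightest probe set. The mean was 2.60 ± 0.19 for knockdown and 2.97 ± 0.04 for wild type (SD, n = 3 each). The log2 difference came to -0.37 ± 0.12 (SE), and the adjusted p in limma over every probe set was 0.902. The unadjusted p in limma, in that fit over probe sets, was 0.0092. In the fit by gene 5.09% of all genes had an unadjusted p under 0.05, which is a looser threshold. The share of probe sets under 0.0092 was not computed. NF1 has several pseudogenes elsewhere in the genome, and which transcripts these probe sets read was not tested. With the mean over probe sets taken for the gene and the identical pair counted once, an alternative chosen after seeing the data, the NF1 log2 difference was -0.28 in place of -0.19, and it was -0.31 with all 3 averaged.

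The pair of MEK kinases sits in the middle of the cascade, and both members were measured. MAP2K1, which encodes MEK1, gave 5.83, 6.17 and 5.99 on wild-type replicates 1, 2 and 3, and 5.93, 5.98 and 6.01 on knockdown replicates 1, 2 and 3. All 3 knockdown values lay inside the wild-type range. The log2 difference of MAP2K1 was -0.02 ± 0.11 (SE), with an adjusted p of 0.982 in limma, and the knockdown signal was 98.4% of the wild-type signal (95% confidence interval 82.9% to 117%). MAP2K2, which encodes MEK2, gave 6.69, 6.34 and 6.52 on wild-type replicates 1, 2 and 3. On knockdown replicates 1, 2 and 3 it gave 6.44, 6.48 and 6.67, again all inside the wild-type range. The log2 difference of MAP2K2 was 0.01 ± 0.12 (SE), with an adjusted p of 0.993 in limma, or 101% of the wild-type signal (95% confidence interval 83.9% to 121%). It was 0 with each array centred on its median. Without wild-type replicate 2 the signs of both turned, to 0.06 for MAP2K1 and -0.08 for MAP2K2, and without knockdown replicate 3 MAP2K2 gave -0.06.

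The MEK genes deviated in opposite directions on a pair of wild-type arrays. On wild-type replicate 1 MAP2K1 was 0.16 below its mean over the 6 arrays (a deviation of -0.16) and MAP2K2 was 0.17 above its own. On wild-type replicate 2 the deviations were 0.19 for MAP2K1 and -0.18 for MAP2K2. On the knockdown arrays the signal of MAP2K1 minus that of MAP2K2 was -0.51, -0.50 and -0.66 in replicates 1, 2 and 3. On the wild-type arrays it was -0.86, -0.17 and -0.53. The knockdown values of this log2 ratio thus fell inside the wild-type range. The mean ratio was -0.56 ± 0.09 for the knockdown arrays and -0.52 ± 0.35 for the wild-type arrays (SD, n = 3 each). The ratio differed between the groups by -0.04, with p = 1 in an exact two-sided permutation test, in which 3 arrays against 3 cannot go below 0.1. The sign of this value turned when wild-type replicate 2 (0.14) or knockdown replicate 3 (0.02) was left out. The ratio of these probe sets is not a ratio of transcript numbers, since probes differ in brightness.

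**Figure D2:**
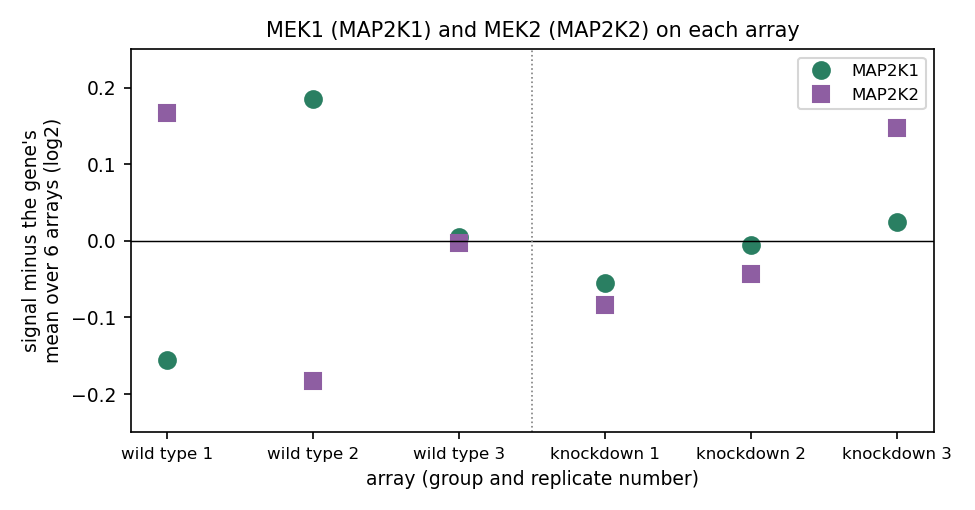
Deviation of the MAP2K1 (green circles) and MAP2K2 (purple squares) signal from each gene's own mean over the 6 arrays, in log2 units, with 1 position on the horizontal axis for each array. The genes lie on opposite sides of 0 on wild-type replicates 1 and 2, by 0.16 to 0.19, and close together on wild-type replicate 3 and on knockdown replicates 1 and 2.

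MAPK3 encodes ERK1, one of the terminal kinases of the cascade and a substrate of DUSP5. Its log2 signal was 6.42, 6.32 and 6.32 on wild-type replicates 1, 2 and 3, and 6.35, 6.25 and 6.34 on knockdown replicates 1, 2 and 3. The 6 values spanned 6.25 to 6.42, and the knockdown arrays lay on both sides of the 2 lower wild-type values. MAPK3 was the steadiest member, with a residual SD of 0.06, and 4.52% of all genes had a smaller one. The mean was 6.31 ± 0.06 for knockdown and 6.35 ± 0.06 for wild type (SD, n = 3 each). The log2 difference was -0.04 ± 0.10 (SE), with an adjusted p of 0.964 in limma. This put MAPK3 at 97.3% of its wild-type level (95% confidence interval 83.8% to 113%). The log2 difference was -0.01 with wild-type replicate 1 or knockdown replicate 2 left out, and -0.06 with knockdown replicate 1 left out.

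The intervals say how large a change these arrays leave room for. Like the p-values, they cover the spread among these arrays only, which may be technical, so separate cultures could differ by more. Taken gene by gene, without adjustment over genes, the 95% confidence intervals of HRAS, MAP2K1, MAP2K2 and MAPK3 lay between 80.2% and 121% of the wild-type signal. For NF1 the lower bound was 68.6%. Changes within these bounds are compatible with the values. In an exact two-sided permutation test over the 6 arrays, p was 0.6 for HRAS, 0.8 for MAP2K1, 1 for MAP2K2, 0.6 for MAPK3 and 0.2 for NF1. DUSP5, the ERK phosphatase of the series title, gave a log2 difference of 0.39 ± 0.10 (SE), with 0.902 as its adjusted p in limma. Its interval, 111.5% to 153% of the wild-type signal, overlapped the intervals of all 5 members. The overlap was narrow for HRAS, NF1 and MAPK3, with upper bounds of 112.1%, 112.5% and 112.9%. Whether DUSP5 differed from a cascade kinase in its response was not tested.

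**Figure D3:**
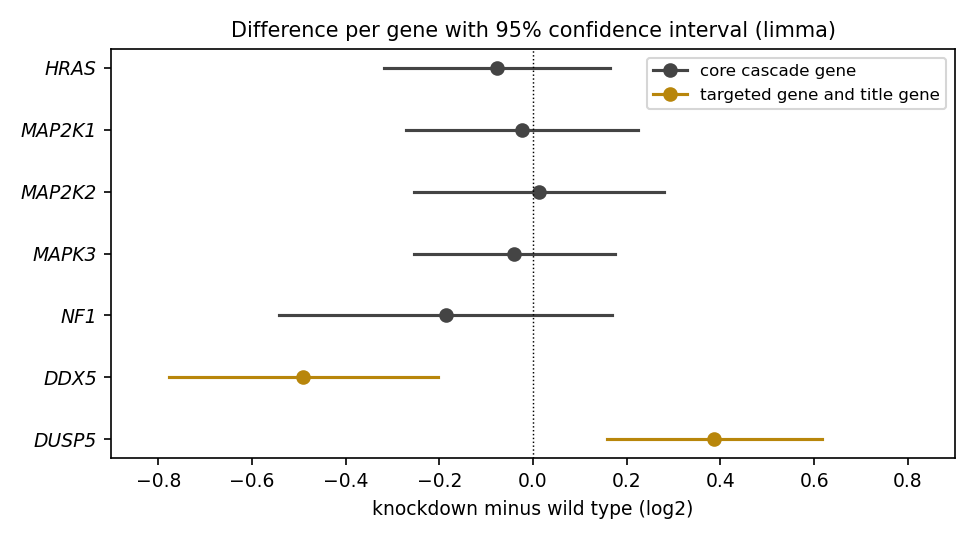
Log2 difference between P68 knockdown and P68 wild type (horizontal axis) for the 5 measured core cascade genes (grey) and for DDX5 and DUSP5 (gold), with points for the estimate and lines for the 95% confidence interval from limma, 3 arrays per group. The intervals of all 5 cascade genes span 0, those of DDX5 and DUSP5 do not, and none of the 7 genes passed the threshold after adjustment over all genes.

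Arrays were compared across the members as well. Knockdown replicates 1 and 2 were each above the 6-array mean for 1 of the 5 members, and knockdown replicate 3 for 4 of 5. Wild-type replicates 1, 2 and 3 were above it for 3, 3 and 2 members. No array was thus high or low for every member. For each member the gene with the most similar profile was found among 9208 other genes at or above the median signal, by the root mean square difference of the 6 mean-centred log2 values. These were RPS6KB2 for HRAS (0.02), BBX for MAP2K1 (0.02), COMP for MAP2K2 (0.01), EPB41L1 for MAPK3 (0.02) and IBTK for NF1 (0.03). With 6 arrays and that many candidates, a close match is easily found. IBTK showed the same low and high arrays as NF1, with 5.53, 5.55 and 5.98 on knockdown replicates 1, 2 and 3 and 5.65, 6.07 and 6.06 on wild-type replicates 1, 2 and 3.

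Genes around the core cascade were taken as 10 lists of 189 genes, of which 171 were measured. None passed the adjusted threshold in limma. An unadjusted p under 0.05 was found for 6 of the 171 (3.51%, against 5.09% of all genes), and 18 (10.5%, against 10.1% of all genes) had groups that did not overlap, with 9 higher and 9 lower in the knockdown (5.98% and 4.15% of all genes). The median absolute log2 difference was 0.10 in these lists and 0.09 over all genes, and the largest was 0.41. These shares of calls were near the background. By sign alone, 71 of the 171 values were above 0 and 100 (58.5%) below, against 46.5% below over all genes, and the median was -0.04 against 0.01.

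Upstream of RAS, 17 adaptors and exchange factors were measured, 10 with values above 0 and 7 below (median 0.07). The median fell to 0.01 with array weights or with knockdown replicate 1 or wild-type replicate 1 left out, to 0.035 with knockdown replicate 2 left out and to -0.01 with wild-type replicate 2 left out. SOS2, an exchange factor that loads RAS with GTP, gave 4.59, 4.70 and 5.06 on wild-type replicates 1, 2 and 3 and 4.45, 3.93 and 4.74 on knockdown replicates 1, 2 and 3. Knockdown replicate 2 was the lowest for SOS2, the groups overlapped, and the log2 difference was -0.41 ± 0.20 (SE). GAB2, a docking protein for growth factor receptors, gave 4.58, 4.87 and 4.74 on the knockdown arrays, all above the wild-type values of 4.56, 4.52 and 4.27, with a log2 difference of 0.28 ± 0.12 (SE). Both had an adjusted p of 0.902 in limma.

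Among 17 other RAS family GTPases, 8 had values above 0 and 9 below (median -0.003). That median had no settled sign: it was 0.065 with wild-type replicate 2 left out, 0.06 with knockdown replicate 1 left out, 0.05 after repeated quantile normalisation, 0.04 after cyclic loess and -0.02 with wild-type replicate 1 left out. RALB, a GTPase that acts downstream of RAS through Ral exchange factors, gave 5.29, 5.07 and 4.64 on the knockdown arrays, all below the wild-type values of 5.40, 5.33 and 5.39. Its log2 difference was -0.37 ± 0.15 (SE), with an adjusted p of 0.902 in limma. ERAS, a RAS-like GTPase known from embryonic stem cells, gave 0.23 ± 0.12 (SE) with overlapping groups. Besides NF1, 5 of 9 listed GTPase activating proteins were measured, 2 above 0 and 3 below (median -0.01). Leaving out knockdown replicate 3 took that median to -0.13, and leaving out knockdown replicate 1 took it to 0.12, while without the dimmest 40% of genes it was 0.05. RASAL3 gave a log2 difference of 0.29 ± 0.16 (SE) and RASA2 one of -0.16 ± 0.15 (SE), both with overlapping groups.

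Of 13 other kinases at the RAF, MEK and ERK levels, 11 were measured, 4 above 0 and 7 below (median -0.06, or 0.01 without knockdown replicate 2), and none had groups that did not overlap. MAP3K2, a kinase of the MEK5 and ERK5 branch, gave -0.19 ± 0.17 (log2 difference ± SE) and MAPK15, an atypical ERK, gave 0.15 ± 0.11. ARAF, a RAF kinase measured here and named after its values were seen, gave 6.05, 6.02 and 5.95 on wild-type replicates 1, 2 and 3 and 6.15, 5.68 and 5.92 on knockdown replicates 1, 2 and 3. Its knockdown arrays enclosed the wild-type ones, and its log2 difference was -0.09 ± 0.13 (SE), adjusted p = 0.933 in limma.

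Scaffolds and modulators of the cascade had 36 measured genes, 14 above 0 and 22 below (median -0.075). The median was -0.04 after cyclic loess or repeated quantile normalisation and with knockdown replicate 2 or wild-type replicate 2 left out, -0.045 with wild-type replicate 1 left out and -0.05 with knockdown replicate 3 left out. PPP1CA, a catalytic subunit of protein phosphatase 1, gave a log2 difference of -0.23 ± 0.15 (SE), and CDC37, a cochaperone that delivers kinases such as RAF to HSP90, gave -0.22 ± 0.14 (SE), with overlapping groups for both. Of 13 measured genes listed as RAS processing and trafficking enzymes, 4 were above 0 and 9 below (median -0.08, or -0.05 with array weights). ZMPSTE24, a protease that trims prenylated proteins, gave 6.54, 7.03 and 7.07 on wild-type replicates 1, 2 and 3 and 6.43, 6.35 and 6.72 on knockdown replicates 1, 2 and 3. Wild-type replicate 1 fell among the knockdown arrays, so the groups overlapped, and the log2 difference of ZMPSTE24 was -0.38 ± 0.16 (SE). Whether ZMPSTE24 acts on RAS proteins was not tested. LYPLA1, an acyl-protein thioesterase, gave -0.22 ± 0.12 (SE) and was among the dimmest 40% of genes.

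Downstream of ERK, 20 substrates and ETS factors were split 10 and 10 around 0 (median -0.003, or 0.04 without wild-type replicate 1). RPS6KA6, a member of the RSK kinase family, was lower on all 3 knockdown arrays, with a log2 difference of -0.32 ± 0.12 (SE), and was among the dimmest 40% of genes. ELK1, an ETS factor phosphorylated by ERK, gave 0.26 ± 0.17 (SE) with overlapping groups, and knockdown replicate 1 was the highest of its 6 arrays at 6.71. The 22 output and feedback genes were split 11 and 11 (median -0.003, or -0.07 with knockdown replicate 1 left out and 0.03 with wild-type replicate 3 left out). DUSP5 led this list, and SPRY1, a feedback inhibitor of receptor signalling, followed with a log2 difference of -0.21 ± 0.13 (SE) and overlapping groups.

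Neighbouring routes were set beside the core cascade. Of 16 kinases of the JNK and p38 cascades, 6 were above 0 and 10 below (median -0.03, or 0.02 without knockdown replicate 1 and 0.002 without knockdown replicate 2). MAPK12, which encodes p38 gamma, was higher on all 3 knockdown arrays (5.88, 5.89 and 5.88) than on the wild-type arrays (5.75, 5.53 and 5.61), and its log2 difference was 0.25 ± 0.10 (SE), adjusted p = 0.902 in limma. MAPK8, which encodes JNK1, gave -0.24 ± 0.22 (SE). Of 15 genes of the PI3K and AKT arm, 3 were above 0 and 12 below (median -0.07). GSK3B, a kinase inhibited by AKT, gave -0.23 ± 0.12 (SE), and PDPK1, which activates AKT, gave -0.18 ± 0.10 (SE) with all 3 knockdown arrays (7.26 to 7.34) below the wild-type arrays (7.43 to 7.53). PIK3R3, a regulatory subunit of PI3K, tied with PDPK1 at -0.18 ± 0.19 (SE), and its groups overlapped.

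**Figure D4:**
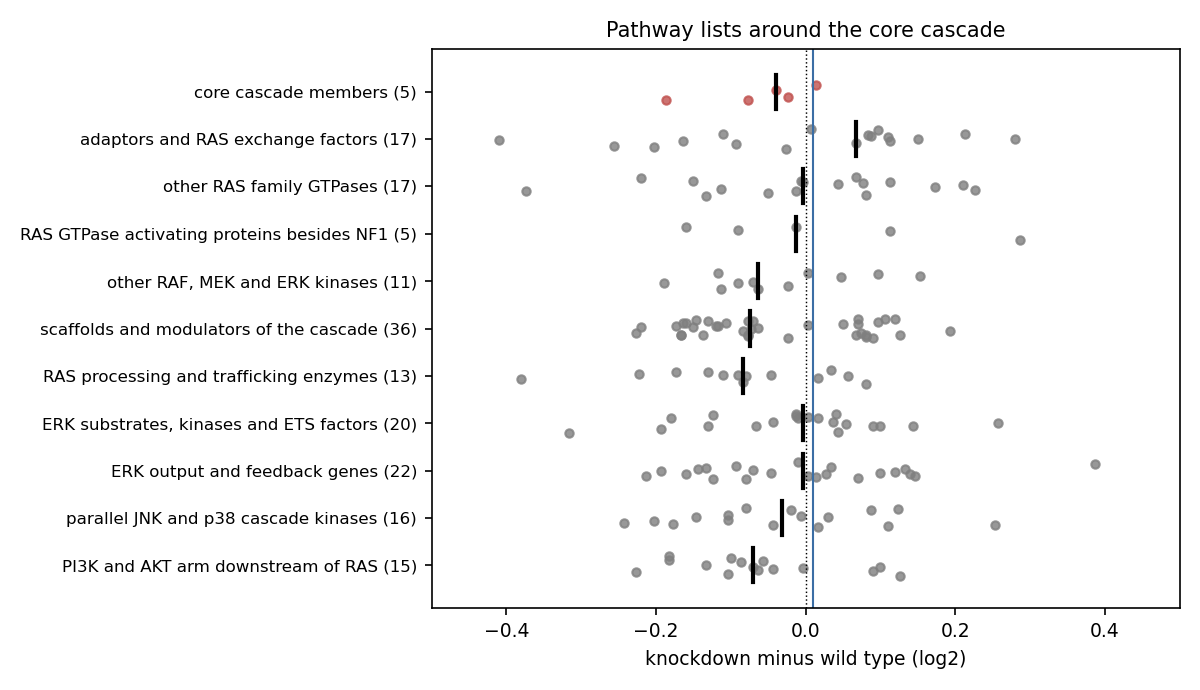
Log2 difference between P68 knockdown and P68 wild type (horizontal axis) for each measured gene of the core cascade (red) and of 10 surrounding lists (grey), with the number of genes in brackets, black bars for list medians, a dotted line at 0 and a blue line at the median of all genes (0.01). The list medians run from -0.08 for RAS processing enzymes to 0.07 for adaptors and exchange factors, and single genes from -0.41 (SOS2) to 0.39 (DUSP5).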

How the data were processed

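Total RNA from U-87 MG cells was hybridised to 6 Affymetrix arrays, 3 per group, and groups were taken from the sample titles. The deposited values are log2 signals made with RMA, per the submitters' processing notes, which corrects background, equalises the arrays and summarises probe sets. The version of RMA and the genome build were not given in the sources used here, so no coordinates are printed. RMA would hide a change shared by most genes. The annotation gave 19460 probe sets 1 gene symbol, 1754 several and 7882 none. Only probe sets with 1 gene symbol were used, so a gene without such a probe set counts as not measured. Each gene was represented by the brightest of these (mean of all 6 arrays).

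All 18417 genes were fitted with limma 3.58.1 under R 4.3.3, using lmFit and eBayes with group alone in the model, two-sided tests and Benjamini-Hochberg adjustment at 0.05, and the script was tested on simulated data. None of these genes was filtered out by signal. Lists were described by counts and medians. Besides the members, DDX5 and DUSP5, the text names the 2 genes of largest absolute difference per list, ties included (no gene passed the threshold) and each member's closest profile. The members and lists were chosen with earlier results of these data known. The planned ratio of NRAS over HRAS was not computed. Precision is limited by the number of arrays (median standard error 0.12). Same-numbered arrays of the groups were treated as unpaired.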

Additional observations from a re-analysis of the deposited data

How the results depend on the processing

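Under each of the 17 alternatives, 0 genes and 0 core cascade members passed the threshold. These were 3 other scalings (median centring, quantile, cyclic loess), dropping the dimmest 40% of genes, probe sets averaged (also with identical ones counted once, chosen after seeing the data) or tested singly, a robust intensity trend, array weights, the replicate block, a 0.01 threshold and each of 6 arrays left out. The smallest adjusted p of any member in these limma fits was 0.765. HRAS, MAPK3 and NF1 kept their sign in all 15 alternatives that gave them a value, but not all of these could change it. Dropping dim genes, the robust intensity trend and the replicate block left each member's difference as it was, by design. So did averaging probe sets for HRAS and MAPK3, which had 1 probe set each. Likewise, the 0.01 threshold could not call a gene that the main threshold did not. With single arrays left out, MAP2K1 ran from -0.11 (wild-type replicate 1 out) to 0.063 (wild-type replicate 2 out). MAP2K2 ran from -0.075 (wild-type replicate 2 out) to 0.10 (wild-type replicate 1 out) and was -0.06 with knockdown replicate 3 out. The MAP2K1 over MAP2K2 ratio ran from -0.21 (wild-type replicate 1 out) to 0.14 (wild-type replicate 2 out) and was 0.02 with knockdown replicate 3 out. Array weights gave -0.12 for HRAS, 0.08 for MAP2K2 and -0.02 for MAPK3. The cause was not tested. Deviations of same-numbered arrays from their group means correlated with r = 0.27, -0.03 and 0.13 over all genes, so the numbers were not taken to pair the arrays. With the replicate block 0 genes passed, and not every array correlated best with its own number. The NRAS over HRAS ratio was not run. Groups of 3 were not tested for outlying arrays.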
